A study of Mus musculus with 6 samples.

Results

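The 10 genes described here encode the receptor tyrosine kinase Ret, its co-receptors Gfra1, Gfra2, Gfra3, Gfra4 and Gfral, and the ligands Gdnf, Nrtn, Artn and Pspn. They were chosen by name as a family, and each matched 1 of the 41388 genes listed in every library. RNA came from EGFP-positive cells sorted out of dorsal root ganglia (spinal segments T11-S1) of C57BL/6 mouse embryos at 18.5 days post coitum. Every library, female or male, carried the same alleles: RetFloxedEGFP, a conditional reporter allele of Ret, and a Cre driver in the Scn10a locus (Scn10a encodes the nociceptor sodium channel Nav1.8; the genotype field of male C names RetFloxedEGFP alone, its title both). The 3 female libraries (A, B and C) drew on 2 embryos and 40 ganglia apiece; of the male libraries, A did likewise, B drew on 3 embryos and 60 ganglia, and C on 1 embryo and 20 ganglia. No unsorted, EGFP-negative or Cre-negative cells were analysed here, so levels can be compared between genes and between sexes only. The labels do not say how many copies of the altered Ret allele the embryos had, so the level of Ret, the ratios to it and its place in the order below cannot be related to those of an unaltered locus. Selection on Ret and Scn10a was part of the sort, so the presence of Ret reads is not taken as a finding. Whether the altered allele itself gives Ret transcript was not tested.

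Ret signals when a dimeric ligand of the glial cell line-derived neurotrophic factor (GDNF) family binds a GFR alpha co-receptor, a protein held to the membrane by a lipid anchor, and the pair brings Ret molecules together. Gfra1 prefers GDNF, Gfra2 neurturin (Nrtn), Gfra3 artemin (Artn) and Gfra4 persephin (Pspn), while Gfral, a transmembrane relative known from the brainstem, binds the stress hormone GDF15. In sensory ganglia Ret marks nonpeptidergic nociceptors and some mechanoreceptors, and their ligands are known as products of skin, other target tissues and supporting cells.

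Total counts ran from 15693013 to 24033601 reads per library. All members of the peptidergic nociceptor list (6 of 6, among them Calca) and of the nonpeptidergic list (6 of 6, among them P2rx3 and Mrgprd) averaged more than 1 RPKM (reads scaled to gene length in kilobases and to the total of the library). Of the measured C-low-threshold mechanoreceptor genes 4 of 5 averaged more than 1 RPKM. Among genes of large-diameter mechanoreceptors and proprioceptors, 5 of 6 averaged more than 1 RPKM. So did 9 of 10 satellite glia and Schwann cell genes, whose summed level was 727 to 792 RPKM in female and 755 to 902 RPKM in male libraries, and 5 of 7 fibroblast genes, summed to 153 to 175 RPKM in female and 150 to 172 RPKM in male libraries. Of 7 genes of endothelial cells and pericytes only the pericyte genes Pdgfrb and Rgs5 were above 1 RPKM, at 4.79 and 9.88 RPKM, and of 5 skeletal muscle genes 1 was, with Myod1 at 0 reads. A mean above 1 RPKM was common: Gfra4, at 1.895 RPKM, ranked 9738 among the 15026 genes with enough reads to be tested. Counts of genes above 1 RPKM, here and below, therefore do not set a list apart. The share of all genes above 1 RPKM was not computed. The part of non-neuronal cells in the levels below was not tested. In RNA from a bulk of cells, fewer cells of a type and less RNA per cell cannot be told apart. The labels give the embryos of each library, a pool in all but male C, without saying whether they were prepared separately. The p-values therefore measure the spread between these libraries.

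Promoter sequence is shown for the 3 co-receptor genes with a promoter entry, all of them lower in level than Gfra2 and Gfra3. They run from transcribed (Gfra1) through weakly transcribed (Gfra4) to no read at all (Gfral). Each line gives the 250 bases before the start annotated by RefSeq on GRCm38.p6 (for Gfra4, which has 2 starts there, the upstream one), on the minus strand, 5′ to 3′, with every CCAAT (or its reverse complement ATTGG) in capitals. The windows are chr19:58455399-58455648 for Gfra1, chr2:131043089-131043338 for Gfra4 and chr9:76213658-76213907 for Gfral.
Gfra1: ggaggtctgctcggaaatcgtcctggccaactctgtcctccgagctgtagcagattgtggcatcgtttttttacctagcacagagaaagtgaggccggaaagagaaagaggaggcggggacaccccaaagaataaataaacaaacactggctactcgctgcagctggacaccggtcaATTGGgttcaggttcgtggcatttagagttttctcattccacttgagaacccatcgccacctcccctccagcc
Gfra4: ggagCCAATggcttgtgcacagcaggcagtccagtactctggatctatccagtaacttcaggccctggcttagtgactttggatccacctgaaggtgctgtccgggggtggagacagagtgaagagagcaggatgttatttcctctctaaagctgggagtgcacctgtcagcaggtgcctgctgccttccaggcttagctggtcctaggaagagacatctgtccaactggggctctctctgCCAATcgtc
Gfral: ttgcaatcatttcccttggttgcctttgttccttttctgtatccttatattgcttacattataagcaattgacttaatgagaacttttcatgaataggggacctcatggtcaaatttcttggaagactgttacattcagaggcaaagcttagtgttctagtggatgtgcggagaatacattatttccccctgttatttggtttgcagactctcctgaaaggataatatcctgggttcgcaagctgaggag

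The Gfra1 window held 1 CCAAT, the Gfra4 window 2 and the Gfral window 0, where 33.85% of 32851 RefSeq promoter windows of this length held at least 1 on either strand. The letters of a TATA core, TATAAA, were in none of these 3 windows on either strand and in 12.37% of all windows. A GC box, written GGGCGG, was likewise in none of the 3 and in 32.74% of all windows. A RUNX core, written TGTGGT, was in none of the 3 and in 14.05% of all windows. The window of the other Gfra4 start, not shown, held 1 RUNX core, 72 bases before that start, and 1 CCAAT. G and C made up 52.4% of the Gfra1 window, 55.2% of the Gfra4 window and 39.6% of the Gfral window, beside a median of 52.4% over all windows. The RefSeq start of Gfra4 and of Gfral was the deposited gene start itself, and that of Gfra1 lay 511 bases inside the deposited gene. Entries matched 7 of the 10 genes; Ret, Gfra2 and Gfra3 had none. These letters describe the windows and no more.

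Gfra3, the artemin co-receptor, was the most abundant of the 10 transcripts, followed by Ret, Gfra2, Gfra1 and, far lower, Gfra4. Gfral and the 4 ligands were below 1 RPKM in every library. The sorted cells thus held transcripts of the receptor and of 4 of its 5 co-receptors, with hardly a read of any ligand: 2 to 8 ligand reads in female and 3 to 11 in male libraries, against 9370 to 17816 receptor and co-receptor reads in female and 13744 to 18109 in male libraries.

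**Figure D1:**
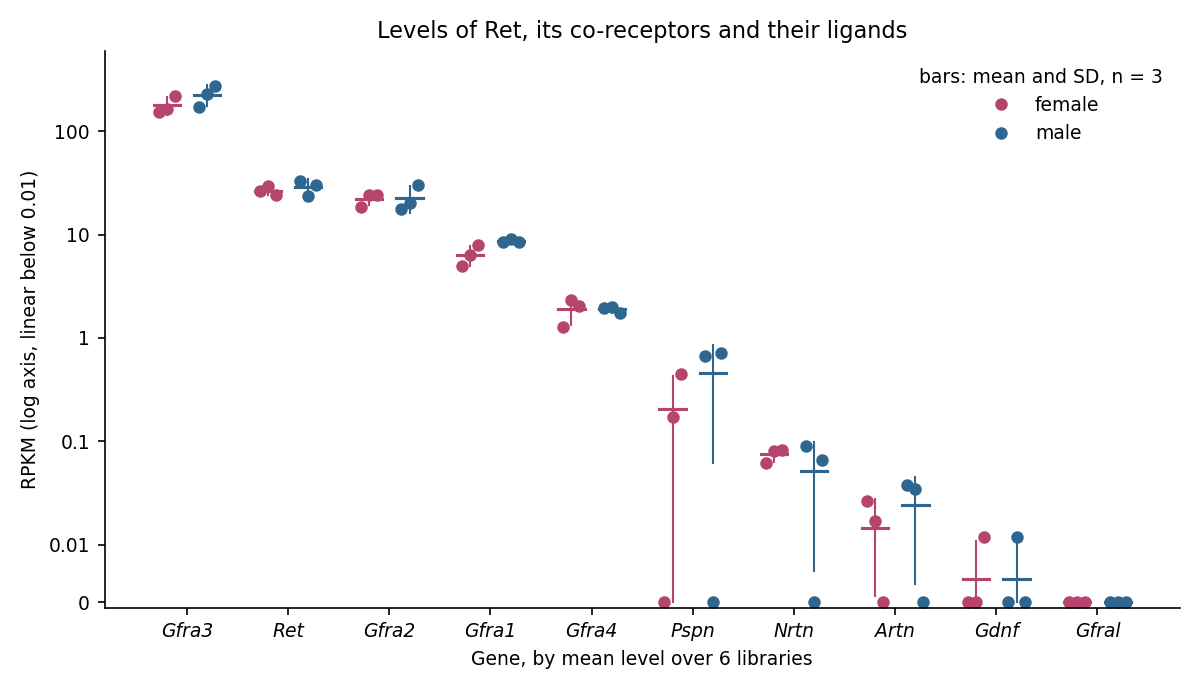
RPKM of each gene in each library, female left of male, on an axis that is logarithmic above 0.01 and linear below it; short horizontal bars are means and vertical lines SDs of 3 libraries. Gfra3 stands near 200 RPKM (202.8 on average), Ret and Gfra2 between 17.7 and 33.3 RPKM, and Gfral and the ligands below 1 RPKM.

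Ret (ENSMUSG00000030110, chromosome 6, 118151748 to 118197744, minus strand; all gene positions are the deposited ones on GRCm38.p2), the signalling subunit, had 3051, 5248 and 4253 reads in female A to C and 5347, 4120 and 3324 reads in male A to C. Per length that was 26.2, 29.3 and 24.3 RPKM in the female libraries, against 33.3, 23.4 and 30.5 RPKM in the male ones. Male A was the highest and male B the lowest library, so the sexes overlapped. Ret varied least of the receptor genes, with a coefficient of variation of 13.8% over the 6 libraries, where counting error alone would give 1.57%. Its mean of 27.8 RPKM ranked 2078 among all genes listed.

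Gfra3 (ENSMUSG00000024366, chromosome 18, minus strand) had 152, 166 and 220 RPKM in female A to C, against 173, 231 and 275 RPKM in male A to C. Male C, from a single embryo, was highest, and female C and male B lay between it and the other libraries. The mean over the 6 libraries was 203 ± 47.1 RPKM (SD), which ranked 257 among all genes. Its coefficient of variation was 23.2%, with 1.14% expected from counting.

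Gfra2 (ENSMUSG00000022103, chromosome 14, 70890130 to 70979838, plus strand), the neurturin co-receptor of nonpeptidergic nociceptors and C-low-threshold mechanoreceptors, had 18.6, 23.9 and 24.2 RPKM in female A to C and 17.7, 20.2 and 30.1 RPKM in male A to C. The male libraries enclosed the female ones, with male C highest and male A lowest. Gfra1 (ENSMUSG00000025089, chromosome 19, 58235604 to 58455909, minus strand), the GDNF co-receptor, had 5.01, 6.30 and 7.88 RPKM in female A to C and 8.40, 9.01 and 8.42 RPKM in male A to C. All 3 male libraries lay above all 3 female libraries, and female A was lowest. Exons of Gfra1 share 416 bases with Gm16277, a gene of the opposite strand that was listed at 0 reads in every library; whether counting used strand is not stated.

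Gfra4 (ENSMUSG00000027316, chromosome 2, 131039632 to 131043088, minus strand), the persephin co-receptor, was weakly present, with 44, 123 and 106 reads in female A to C and 93, 104 and 56 reads in male A to C. Per length that was 1.28, 2.33 and 2.06 RPKM in the female libraries, against 1.96, 2.01 and 1.74 RPKM in the male ones. Female A was lowest and female B highest, so the female libraries enclosed the male ones, and its coefficient of variation was 18.7%, with 11.4% expected from counting. Gfra4 shares 80 exon bases with Mir6973b, which had 0 reads. Gfral (ENSMUSG00000059383, chromosome 9, 76164102 to 76213657, minus strand) had 0 reads in each of the 6 libraries. A count of 0 allows up to 0.0590 to 0.0971 RPKM per library, and 0.0116 RPKM over all 6 (3 counts, counting error only).

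Each ligand gene had fewer than 10 reads in every library. Gdnf (ENSMUSG00000022144, chromosome 15, 7811011 to 7837575, plus strand) had 1 read in female C, 1 in male B and 0 in the other libraries. Over all 6 libraries that is 0.00457 RPKM with an exact 95% Poisson interval of 0.000553 to 0.0165 RPKM, for counting error only. Artn (ENSMUSG00000028539, chromosome 4, 117926162 to 117929763, minus strand) had 1, 1 and 0 reads in female A to C and 2, 2 and 0 reads in male A to C. Nrtn (ENSMUSG00000039481, chromosome 17, 56751325 to 56757530, minus strand) was read 1, 2 and 2 times in female A to C, against 2, 0 and 1 times in male A to C.

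Pspn (ENSMUSG00000002664, chromosome 17, 56999457 to 57000018, minus strand) was the ligand with the most reads: 0, 2 and 5 in female A to C and 7, 0 and 5 in male A to C. Its deposited length is only 474 bases, so these 19 reads correspond to 0.321 RPKM over all libraries (exact 95% Poisson interval 0.193 to 0.502 RPKM). The 8 reads of Nrtn corresponded to 0.0627 RPKM (0.0271 to 0.124 RPKM) and the 6 reads of Artn to 0.0200 RPKM (0.00734 to 0.0435 RPKM). No other listed gene overlaps the ligand genes.

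The order of mean levels was Gfra3, Ret, Gfra2, Gfra1, Gfra4, Pspn, Nrtn, Artn, Gdnf and Gfral. In the upper 5 of the 9 neighbouring pairs, down to Gfra4 over Pspn, the upper gene was higher in 6 of 6 libraries. Each of these pairs had a two-sided exact sign-flip permutation p of 0.03125, the smallest 6 libraries allow, and a Benjamini-Hochberg adjusted p of 0.0562 over the 9 pairs, so none passed 0.05 after adjustment; with 9 pairs at least 6 would have to reach the smallest p for any to pass. Gfra3 lay above Ret by 2.84 ± 0.41 units of log2(RPKM + 0.1) (SD, n = 6), Gfra2 above Gfra1 by 1.57 ± 0.37 and Gfra1 above Gfra4 by 1.92 ± 0.29. Ret and Gfra2 were the closest of these pairs: the difference of 0.32 ± 0.34 was no larger than its SD. Below Gfra4 the neighbours did not separate, with Pspn above Nrtn in 4 of 6 libraries (exact permutation p = 0.1875), Nrtn above Artn in 5 of 6 (exact permutation p = 0.09375), Artn above Gdnf in 4 of 6 (exact permutation p = 0.125) and Gdnf above Gfral in 2 of 6 (exact permutation p = 0.5).

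Within the co-receptors, Gfra3 made up 85.9%, 83.6% and 86.6% of the summed RPKM in female A to C and 86.0%, 88.1% and 87.2% in male A to C. Gfra2 contributed 9.695 ± 1.499%, Gfra1 3.23 ± 0.53% and Gfra4 0.83 ± 0.22% (SD, n = 6). The share of Gfra2 ran from 7.68% to 12.1% and that of Gfra1 from 2.67% to 4.17%; Gfra3 makes up most of its own total, so its share can move little. Counted as reads without regard to length, the share of Gfra3 was 76.42% and that of Gfra1 7.86%, since Gfra1 is the longer gene.

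Set against Ret in the same library, where the scaling of library size cancels, the co-receptors differed more. The RPKM of Gfra3 was 5.82, 5.66 and 9.04 times that of Ret in female A to C, against 5.20, 9.87 and 9.01 times in male A to C. The ratio thus stood at 5.20 to 5.82 in female A, female B and male A, and at 9.01 to 9.87 in female C, male B and male C. Gfra2 over Ret was 0.712, 0.818 and 0.995 in the female libraries, against 0.533, 0.860 and 0.988 in the male ones. Gfra1 over Ret was 0.191, 0.215 and 0.324 in the female libraries, against 0.252, 0.385 and 0.276 in the male ones. For each of Gfra3, Gfra2 and Gfra1 the highest 3 ratios were those of female C, male B and male C, and these libraries came from both sexes. The ratios share Ret as denominator, so their agreement is partly built in: Ret was lowest in male B (23.4 RPKM) and female C (24.3 RPKM). By level, only Gfra3 was highest in these 3 libraries. Gfra2 was highest in male C, female C and female B, and Gfra1 in male B, male C and male A. Gfra4, below 10 CPM, was not set against Ret. The part of library differences in these ratios was not tested.

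**Figure D2:**
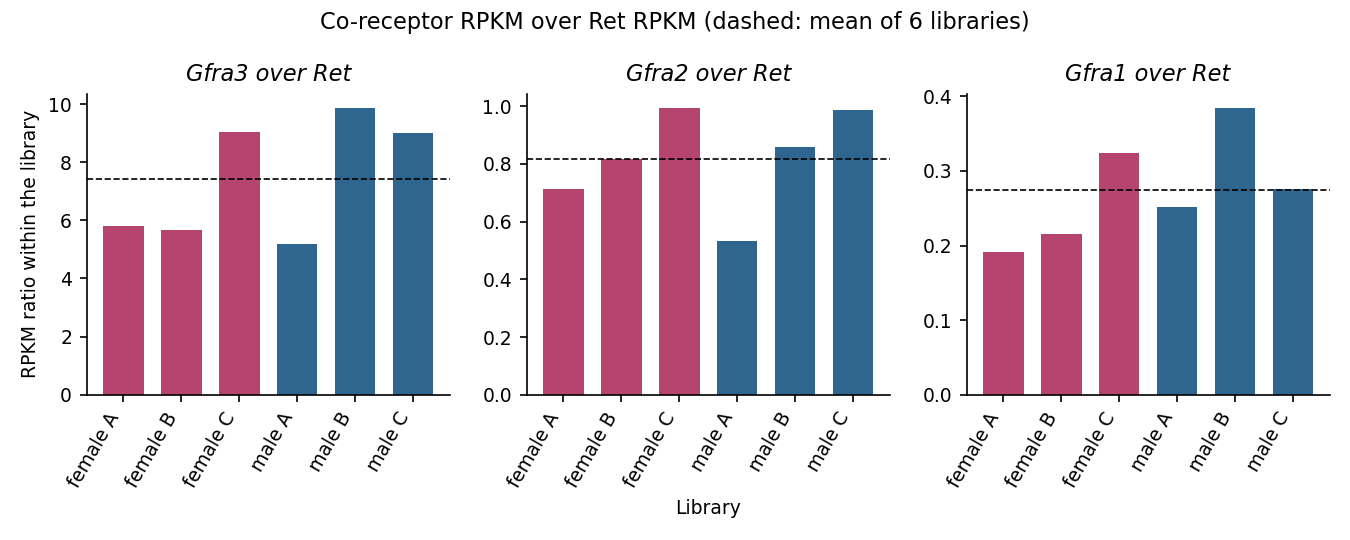
RPKM of Gfra3, Gfra2 and Gfra1 divided by the RPKM of Ret in the same library, one bar per library, female left of male, with the mean of 6 libraries dashed; each panel has its own axis from 0. Female C, male B and male C have the highest 3 bars in every panel, 9.01 to 9.87 for Gfra3. All panels share Ret as denominator.

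No gene of the family passed the test between sexes across all genes. The 5 genes with enough reads (Ret, Gfra1, Gfra2, Gfra3 and Gfra4; the other 5 fell under the filter) entered edgeR's quasi-likelihood test as female over male, with p-values Benjamini-Hochberg adjusted over 15026 genes. Of these 5 genes 0 were called at an adjusted p of 0.05, beside 0.0333% of all tested genes, and 0 had an unadjusted p under 0.05; DESeq2 and limma-voom each called 0, and limma-voom gave 1 (Gfra1) an unadjusted p under 0.05. Gfra1 averaged 6.39 ± 1.44 RPKM in female and 8.61 ± 0.35 RPKM in male libraries (SD, n = 3 each). Its log2 fold change was -0.43, standard error 0.20, with a 95% interval of -0.87 to 0.01 (edgeR adjusted p = 0.99968). It was the only 1 of the 5 whose sexes did not overlap, as was the case for 5.7% of all tested genes in either direction and for 2.53% with the male libraries higher. The summed level of the 6 peptidergic nociceptor genes did not overlap either, at 1250 to 1555 RPKM in female and 1572 to 1835 RPKM in male libraries. This was the only marker list whose sums did not overlap, and it was cited after the sums were seen. Calca, at a mean of 974.7 RPKM, was by far the highest of the 6 genes. The part of this sum in the Gfra1 values was not tested. With 1 library left out the log2 fold change of Gfra1 ran from -0.61 without female C to -0.28 without female A. Over 14 alternatives its adjusted p (edgeR, DESeq2 or limma-voom) ran from 0.7818 to 1.0.

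Gfra3 averaged 179 ± 35.8 RPKM in female and 226 ± 51.0 RPKM in male libraries. On the log2 scale the fold change was -0.34, standard error 0.21 (95% interval -0.80 to 0.13, edgeR adjusted p = 0.99968). It was -0.51 without female C, -0.50 without male A and -0.17 without male C. For Ret the log2 fold change was -0.13 with an interval of -0.52 to 0.26, and with 1 library left out it ran from -0.26 without male B to -0.02 without male A. For Gfra2 it was -0.02 with an interval of -0.52 to 0.47, and for Gfra4 it was -0.01 with an interval of -0.68 to 0.66 (edgeR adjusted p = 0.99968 for each of Ret, Gfra2 and Gfra4). These intervals reach sizes of 0.5 log2 units and more in at least 1 direction, so they do not show that the sexes were alike. The direction of Gfra2 and Gfra4 turned under some of the alternatives tried.

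**Figure D3:**
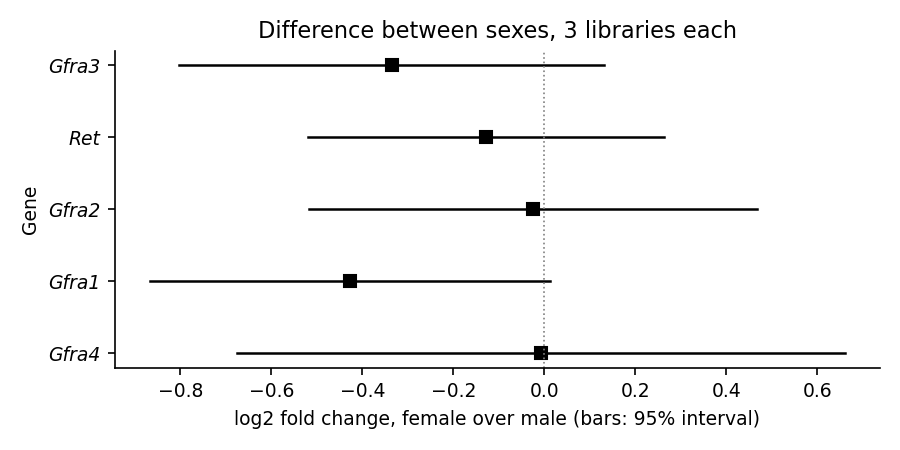
log2 fold change, female over male, of the 5 tested genes from the edgeR fit across all genes, with 95% intervals; genes are ordered by level from top to bottom. Every interval includes 0, and that of Gfra1, from -0.87 to 0.01, lies nearest to excluding it.

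Across libraries the 4 genes above 10 CPM (reads scaled to the library total; the minimum used for comparing patterns) varied by an SD of log2 CPM of 0.20 for Ret, 0.33 for Gfra1, 0.29 for Gfra2 and 0.33 for Gfra3, against a median of 0.24 over the 8739 genes at that level. The SD of the log2 ratio to Ret was 0.37 for Gfra1, 0.34 for Gfra2 and 0.41 for Gfra3, beside a median of 0.29 over the 8738 other genes set against Ret. Between co-receptors it was 0.38 for Gfra1 and Gfra2, 0.23 for Gfra1 and Gfra3, and 0.25 for Gfra2 and Gfra3. The medians over all other genes were 0.40 against Gfra1, 0.36 against Gfra2 and 0.40 against Gfra3, so Gfra3 with Gfra1 and Gfra3 with Gfra2 were the pairs well under them. The genes most like each receptor gene by this measure, over 6 libraries, were Smim11, Atp6ap2 and Ptcd2 for Ret, with SDs of 0.026 to 0.038, Pnkd, Kdelr2 and Tfpt for Gfra3, with SDs of 0.039 to 0.044, Mbd1, Pdgfrb and Usp20 for Gfra2, with SDs of 0.070 to 0.088, and Cpne5, Pkig and Nipal3 for Gfra1, with SDs of 0.063 to 0.10. They are the closest of many genes over few libraries, which share depth and preparation.

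The list of alternative partners holds surface proteins that can bind GDNF family ligands or their receptors, and Gdf15; 4 of its 6 genes averaged more than 1 RPKM. The integrin subunit gene Itgb1 stood at 89.2 ± 11.5 RPKM and the neural cell adhesion molecule gene Ncam1, an alternative partner of GDNF with Gfra1, at 80.2 ± 12.3 RPKM, both above Ret. The cadherin gene Cdh2 stood at 11.1 ± 2.12 RPKM. Gdf15, the ligand of Gfral, was at 0.0423 ± 0.0741 RPKM, with 0 to 8 reads per library (SD, n = 6), so the cells lacked reads of both partners of that pair or nearly so. Ncam1 shares 254 exon bases with the opposite-strand gene Gm11149.

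Adaptors that dock at phosphorylated Ret were unevenly represented, with 15 of 21 above 1 RPKM. Dok4, a docking protein that binds Ret, stood highest at 96.7 ± 31.2 RPKM and was the only 1 of the 21 above Ret; it shares 415 exon bases with Polr2c on the other strand. Grb2, the adaptor to the Ras pathway, averaged 24.6 ± 1.498 RPKM and Crk 22.5 ± 1.83 RPKM, while Grb7 was at 0.0938 ± 0.0376 RPKM (SD, n = 6). Of the kinases and GTPases downstream 22 of 24 averaged more than 1 RPKM, a level that most tested genes passed. The small GTPase gene Nras reached 282 ± 57.9 RPKM, the ERK1 kinase gene Mapk3 214 ± 46.3 RPKM and the Raf family gene Araf 49.1 ± 6.47 RPKM. Pik3r1, a regulatory subunit of phosphoinositide 3-kinase, stood at 25.8 ± 5.54 RPKM, and the catalytic subunit gene Pik3cb was lowest at 0.932 ± 0.240 RPKM (SD, n = 6).

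Of the negative regulators 13 of 16 averaged more than 1 RPKM. The ubiquitin ligase gene Nedd4 stood at 128 ± 6.59 RPKM, Spry2, a feedback inhibitor of receptor tyrosine kinases, at 77.0 ± 33.3 RPKM and the ERK phosphatase gene Dusp6 at 26.4 ± 7.44 RPKM (SD, n = 6). Spry2 and Dusp6 are also known as genes switched on by ERK activity. The lowest was Cblc, a ubiquitin ligase gene, at 0.0932 ± 0.0501 RPKM, and the phosphatase gene Ptprj was at 0.332 ± 0.120 RPKM. Among trafficking and processing genes, 5 of 7 were above 1 RPKM, led by the endocytic adaptor gene Ap2m1 at 42.3 ± 3.64 RPKM. Pacsin1 averaged 7.34 ± 3.58 RPKM and Sorl1, a sorting receptor for GDNF and Gfra1, 7.06 ± 0.40 RPKM; Sorl1 shares 185 exon bases with the opposite-strand gene Gm16214. The proprotein convertase gene Furin averaged 0.585 ± 0.137 RPKM and Pcsk6 0.0103 ± 0.00799 RPKM (SD, n = 6).

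Of the transcription factors of the Ret sensory lineage 8 of 11 were above 1 RPKM. The pan-sensory factors Pou4f1 and Isl1 stood at 197 ± 21.6 and 173 ± 15.5 RPKM and Klf7 at 74.7 ± 3.64 RPKM; Klf7 shares 3196 exon bases with the opposite-strand gene Gm26649, which had 0 reads. Runx1, known to maintain Ret in nonpeptidergic nociceptors, averaged 7.71 ± 1.22 RPKM, and its partner Cbfb 41.2 ± 6.65 RPKM. Mafa, a factor of early Ret mechanoreceptors, was at 0.0194 ± 0.0325 RPKM, with 0 to 2 reads per library (SD, n = 6). Runx1 and Cbfb are named outside the rule for named genes, after their values were seen.

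**Figure D4:**
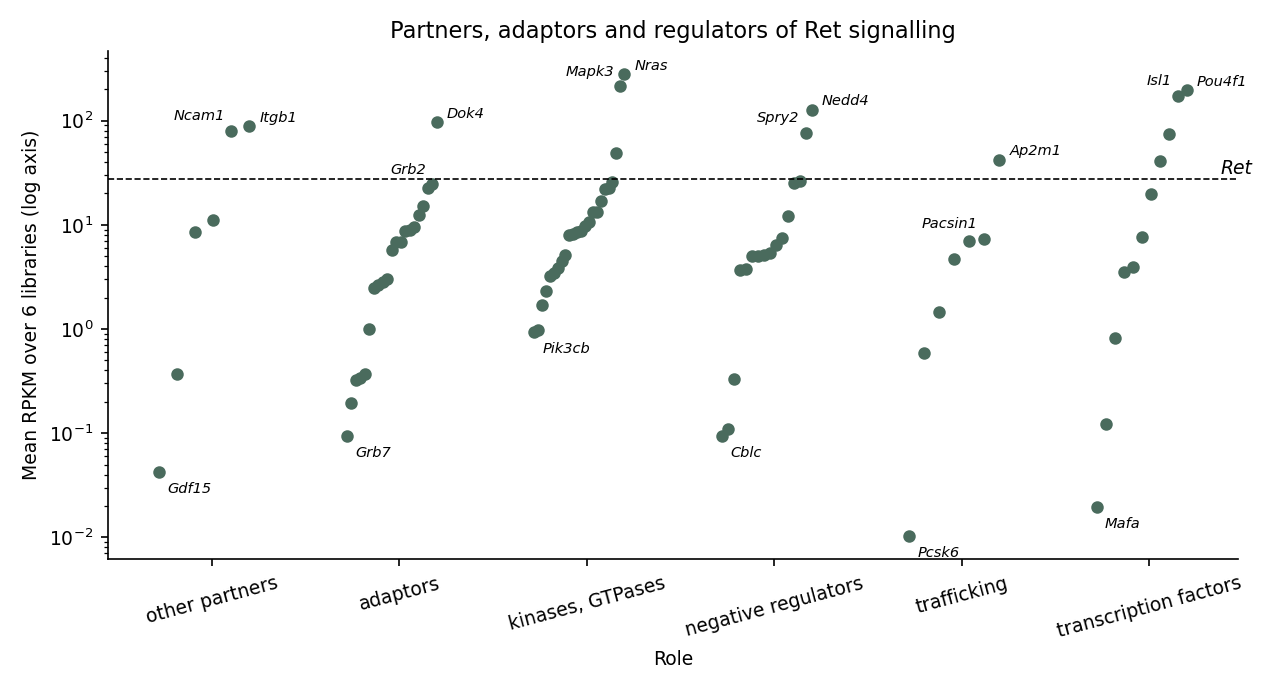
Mean RPKM over 6 libraries (log axis) of 85 genes of Ret signalling by role, each point 1 gene in rising order within its role, with the level of Ret dashed; the highest pair and the lowest gene of each role are named. Of the 85 genes 13 lie above Ret at 27.8 RPKM.

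Between sexes, 0 of the 79 tested genes of this list passed edgeR with a higher level in female and 0 with a higher level in male libraries, beside 0.00666% and 0.0266% of all tested genes. DESeq2 and limma-voom also called 0. The median log2 fold change was 0.01 over the list and -0.01 over all tested genes, and 1 gene of the list had an unadjusted p under 0.05, against 1.1% of all tested genes. That gene was Prdm12, a factor of nociceptor specification, with 16.4 ± 1.42 RPKM in female and 23.1 ± 3.18 RPKM in male libraries (SD, n = 3 each). Its log2 fold change was -0.49, standard error 0.18 (edgeR adjusted p = 0.99968), and it shares 200 exon bases with Gm13425 on the other strand. The groups did not overlap for 3 of the 79 tested genes, where 5.7% of all tested genes did not: for Prdm12, for the adaptor gene Gab2 (7.66 ± 0.24 RPKM in female and 6.09 ± 0.30 RPKM in male libraries) and for the Src family kinase gene Yes1 (1.12 ± 0.16 and 0.82 ± 0.11 RPKM in female and male libraries). Yes1 was chosen after its values were seen.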

How the data were processed

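Per the labels' protocols, 10 ng of RNA went into each SMARTer library, with 12 cycles of PCR. The submitters' processing notes name featureCounts 1.4.5 and GRCm38.p2; strand setting, annotation release and handling of multiply matching reads are not stated there. The authors deposited for each library a raw count, a CPM value (count scaled to the library total), an RPKM value (CPM per kilobase) and the gene length per gene; CPM and RPKM were checked to equal rescaled counts and were recomputed with TMM library sizes. Gene symbols came from GENCODE M21 by identifier (97.26% matched).

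Counts of genes passing filterByExpr were tested, female over male, with edgeR 4.0.16 (R 4.3.3) using quasi-likelihood, Benjamini-Hochberg adjusted at 0.05, two-sided; the standard error is the log2 fold change over the root of F, and the step was tested on simulated data. Neighbouring levels were compared by 64 sign flips of log2(RPKM + 0.1), which understates differences of low genes. DESeq2 1.42.0, limma-voom (limma 3.58.1), other factors and filters, the letter as a block, the embryo number as a covariate and each library left out were alternatives. Total counts, 15693013 to 24033601 reads per library, set the precision; intervals and limits from 0 counts (95%) cover counting error only, as PCR copies cannot be recognised without molecular identifiers.

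The members and lists were chosen with earlier results of these data known. Named genes are all members, the 3 closest in pattern to each member above 10 CPM, for each role of the pathway list the 3 highest, the lowest and the one of smallest p, and genes overlapping a member.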

Additional observations from a re-analysis of the deposited data

How the results depend on the processing

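The count of genes called between sexes was 5 with the chosen settings, 12 with no filter on low counts and 5 to 7 under the other alternatives, while the counts of called family members and of called pathway genes were 0 under each alternative run. Leaving out each library in turn gave 5 in each case for all genes, and 0 in each case for members and pathway genes. Taking the letter as a replicate block left the counts at 5, 0 and 0. Correlations of deviations between same-letter libraries were 0.284, -0.294 and -0.077 for A, B and C. Whether same-letter libraries share anything beyond the name was not tested. The log2 fold change of Gfra2, female over male, was -0.02 with the chosen settings, 0.017 with limma-voom and 0.002 with the replicate block; with libraries left out it ran from -0.17 to 0.23, with 0.09 without female A and 0.23 without male C. That of Gfra4 turned to 0.20 without female A, 0.02 without male A and 0.03 without male B, within a range of -0.19 to 0.20. The cause was not tested. Ret, Gfra1 and Gfra3 kept a negative sign in all 14 alternatives, with adjusted p of at least 0.78.

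With CPM in place of RPKM, where gene length no longer enters, the shares of co-receptor reads became 7.86%, 14.92% and 76.42% for Gfra1, Gfra2 and Gfra3, and the log2 ratios to Ret became -2.33, -1.41 and 0.96, in place of -1.91, -0.32 and 2.85. Without each library in turn the shares ran from 3.04% to 3.34% for Gfra1, 9.22% to 10.1% for Gfra2, 85.87% to 86.78% for Gfra3, 0.76% to 0.89% for Gfra4 and 0% for Gfral, and the log2 ratios from -2.02 to -1.81, -0.39 to -0.21 and 2.75 to 2.94 for Gfra1, Gfra2 and Gfra3. In the order of levels no pair turned under the alternatives run. That 0 of 9 pairs passed under each says nothing about stability, since at least 6 pairs must reach the smallest p for any to pass; with 1 library left out, 5 libraries cannot give a sign-flip p below 0.0625, so differences were read without a test. Depth limits Gfral, Gdnf, Nrtn and Artn, whose reads per library were below the 3 counts that a count of 0 allows; Pspn had 5, 7 and 5 reads in female C, male A and male C, above that limit.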

Other observations

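Some genes of the pathway list had, by level, the same high libraries as the ratios of Gfra1, Gfra2 and Gfra3 to Ret. Those ratios share Ret as denominator, and by level Gfra1 and Gfra2 had other highest libraries. Spry2 stood at 51.5, 52.1 and 89.6 RPKM in female A to C and at 42.0, 103 and 124 RPKM in male A to C. Dusp6 stood at 21.2, 19.9 and 32.5 RPKM in female A to C and at 17.9, 34.7 and 31.9 RPKM in male A to C. Dok4 stood at 64.3, 75.4 and 139 RPKM in female A to C and at 76.4, 130.3 and 94.2 RPKM in male A to C. For each of these 3 genes the highest 3 libraries were female C, male B and male C. They were picked for this after their values were seen, from 85 genes, and no test was made. Other genes of the list had the same highest 3 libraries, among them Dok1, Shc1 and Akt1, so the pattern was not particular to the genes picked. Its share over the list and over all genes was not computed. Over all tested genes, female C and male B were the most alike pair of libraries. The SD of their log2 CPM difference was 0.376, against 0.472 to 0.707 for the other pairs. The part of this likeness in the pattern was not tested.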
